A study of Mus musculus with 9 samples.

Results

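Binding of the nuclear protein DPPA4 was examined at the loci of 10 genes of the pluripotency network, Pou5f1, Sox2, Nanog, Klf4, Esrrb, Tfcp2l1, Prdm14, Sall4, Zfp42 and Lin28a. A locus was the span of the gene in the mouse genome build mm9, given to the nearest kb or so, with 20 kb added on each side. The 10 windows were between 43 and 201 kb long and covered 704 kb in all. They held 197 of the 229345 peaks in the 6 deposited peak lists.

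The lists came from chromatin immunoprecipitation followed by sequencing (ChIP-seq) with an antibody to DPPA4 in 3 mouse cell lines, with 2 immunoprecipitated libraries per line. E14 is an embryonic stem cell line, kept here on gelatin without feeders in 2i medium with serum added. P19 is an embryonal carcinoma line, and 3T3 is a fibroblast line that was given Dppa4 from outside. P19 and 3T3 cells were grown in DMEM with serum. No genetic change is named for E14 or P19, and nothing in the labels describes the construct, promoter or clonality behind the ectopic Dppa4. Whether the paired libraries of a line came from different cultures is not stated, so p-values measure only how far these libraries differ, which may be technical variation. Each line also had 1 input library, not analysed here. Peak lists hold no expression values, so the state of the cells was not checked against marker genes.

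Dppa4 is itself expressed in the early embryo, in embryonic stem cells and in germ cells. Its protein has a DNA-binding SAP domain and works with its relative DPPA2. OCT4 (the product of Pou5f1), SOX2 and NANOG form the centre of the network that keeps stem cells undifferentiated, and they bind enhancers of one another and of the other genes described here. KLF4, ESRRB, TFCP2L1 and PRDM14 belong to the naive state that 2i medium favours. In fibroblasts most of this network is silent.

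Peaks over or next to a gene start were found at promoters that differ in their content of the dinucleotide CG. The 250 bases before the start are shown from RefSeq (build GRCm38.p6), with each CG in capitals, 5′ to 3′ on the strand of the gene. Klf4, Sox2 and Tfcp2l1 are shown because peaks lay within 1 kb of their start in 5 of the 6 libraries. Esrrb is shown at the second of its listed starts, where peaks of all 3 lines lay. Nanog had peaks just upstream in E14 and P19 alone, and Pou5f1 and Zfp42 are shown because no library had a peak at their start.
Klf4: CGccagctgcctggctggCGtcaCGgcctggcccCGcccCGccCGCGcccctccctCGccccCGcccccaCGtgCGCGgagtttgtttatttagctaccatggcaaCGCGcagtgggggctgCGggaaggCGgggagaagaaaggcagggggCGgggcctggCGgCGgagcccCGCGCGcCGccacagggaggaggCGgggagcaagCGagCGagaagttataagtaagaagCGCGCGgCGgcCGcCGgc
Sox2: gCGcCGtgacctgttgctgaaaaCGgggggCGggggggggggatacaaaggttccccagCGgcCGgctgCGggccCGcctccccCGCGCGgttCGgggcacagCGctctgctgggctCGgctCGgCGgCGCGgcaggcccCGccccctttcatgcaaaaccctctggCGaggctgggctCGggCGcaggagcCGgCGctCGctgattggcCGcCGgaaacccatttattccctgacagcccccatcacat
Tfcp2l1: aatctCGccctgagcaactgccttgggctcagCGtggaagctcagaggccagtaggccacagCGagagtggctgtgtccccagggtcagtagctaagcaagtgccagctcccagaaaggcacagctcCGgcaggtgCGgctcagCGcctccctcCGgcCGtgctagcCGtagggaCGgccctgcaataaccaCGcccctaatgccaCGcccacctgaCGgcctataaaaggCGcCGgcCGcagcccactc
Esrrb, second start: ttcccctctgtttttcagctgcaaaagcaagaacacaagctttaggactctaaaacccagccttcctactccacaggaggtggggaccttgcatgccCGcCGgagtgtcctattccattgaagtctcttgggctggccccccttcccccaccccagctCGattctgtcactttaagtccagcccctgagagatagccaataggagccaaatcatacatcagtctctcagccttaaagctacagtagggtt
Nanog: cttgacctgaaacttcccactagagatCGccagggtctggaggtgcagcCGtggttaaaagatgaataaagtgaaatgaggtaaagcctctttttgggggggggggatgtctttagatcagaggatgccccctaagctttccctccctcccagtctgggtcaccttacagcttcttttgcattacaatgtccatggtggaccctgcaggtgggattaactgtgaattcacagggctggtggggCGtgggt
Pou5f1: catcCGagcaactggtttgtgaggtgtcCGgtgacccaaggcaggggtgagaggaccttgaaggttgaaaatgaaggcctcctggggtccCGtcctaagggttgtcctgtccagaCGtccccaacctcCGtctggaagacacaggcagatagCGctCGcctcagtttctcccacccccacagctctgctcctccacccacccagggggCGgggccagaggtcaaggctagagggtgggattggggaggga
Zfp42: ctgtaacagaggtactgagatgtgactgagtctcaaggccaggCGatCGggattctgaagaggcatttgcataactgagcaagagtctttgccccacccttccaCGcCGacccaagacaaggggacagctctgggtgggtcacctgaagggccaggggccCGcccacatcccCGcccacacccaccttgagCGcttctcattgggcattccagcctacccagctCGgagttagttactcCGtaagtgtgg

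The stretch before Klf4 held 32 CG, that of Sox2 27 and that of Tfcp2l1 16. Of the 32851 promoter entries in the RefSeq table, 4.58% held as many as Klf4, 8.56% as many as Sox2 and 25.4% as many as Tfcp2l1. Among the 8 genes with an entry, the promoters with the most CG thus had peaks at the start in 5 libraries each. The stretches before Zfp42 and Pou5f1 held 9 and 8 CG, against a median of 6 over all entries, and had no peak at the start. That of Lin28a held 7, with a start peak in 1 library, and that of the first Esrrb start held 6, with none. Nanog and the second Esrrb start went the other way. Each held 3 CG, and peaks lay within 1 kb of the Nanog start in 4 libraries and of the second Esrrb start in 5. Entries for 8 of the 10 genes were matched by symbol, all but Prdm14 and Sall4, and the promoters shown were picked by their peaks. This leaves the relation between CG content and peaks as a description of a few promoters. The table belongs to another build than the peaks, and the windows shown were placed by gene name.

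DPPA4 peaks were present at most of the loci in the pluripotent lines and were found in both 3T3 libraries at Sox2, Klf4, Esrrb and Sall4 alone. At least 1 peak lay in 9 of the 10 windows in each E14 library, in all 10 in each P19 library, and in 4 and 7 in the 3T3 libraries. Of all 50 kb tiles of the genome, 52.5% and 46.2% overlapped a peak of the E14 libraries, 41.4% and 48.4% of the P19 libraries, and 18.6% and 23.2% of the 3T3 libraries. Regions called in both libraries of a line lay at 8 loci for E14, 10 for P19 and 4 for 3T3. Of the same tiles, 43.1% overlapped such a region in E14, 38.6% in P19 and 16.5% in 3T3. Without 3T3 replicate 1, every peak of 3T3 replicate 2 counted as a region, and the 3T3 count was 7 of 10. The Prdm14 locus had no peak in either E14 library, and the Lin28a locus had 1 peak in each of them at different places. Nanog, Prdm14 and Zfp42 had no peak in either 3T3 library. Tiles are drawn from the whole genome, much of which holds no genes, and the windows were not all of that length.

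**Figure D1:**
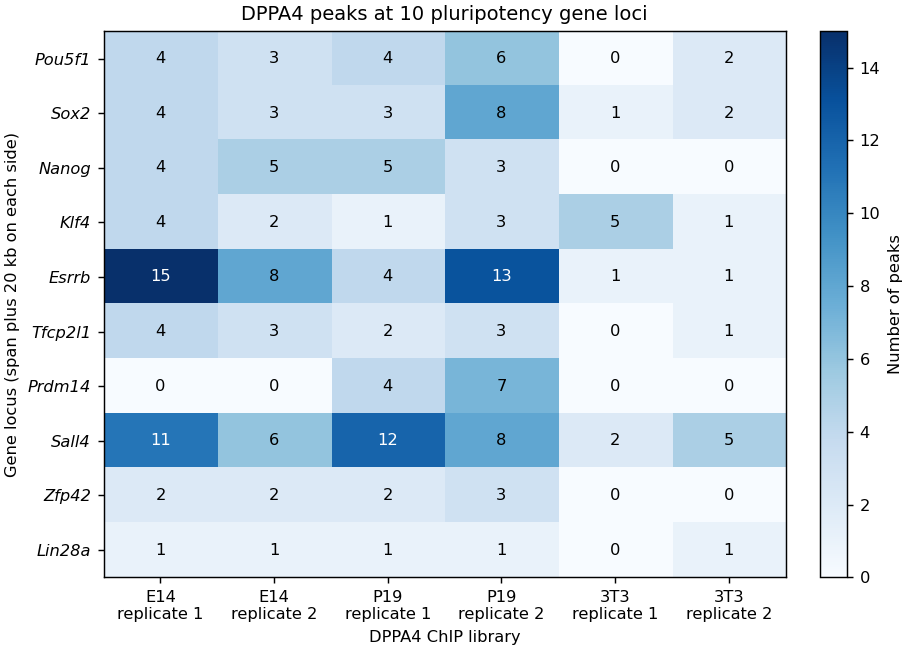
Number of DPPA4 peaks in each of the 10 windows (rows, gene span plus 20 kb on each side) and each of the 6 libraries (columns), with the colour scale running from 0 to 15 peaks. Esrrb and Sall4 held the most peaks in E14 and P19 with the libraries of a line added up, Prdm14 held peaks in P19 alone, and Lin28a held at most 1 peak in any library. The windows differ in length, and that of Esrrb is the longest, at 201 kb.

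The windows were denser in peaks than the genome as a whole in every library, and so were the stretches next to them. In the windows, E14 had 49 and 33 peaks in its libraries, P19 had 38 and 55, and 3T3 had 9 and 13. This came to 69.6 and 46.9 peaks per Mb for E14, 54.0 and 78.1 for P19, and 12.8 and 18.5 for 3T3. Dividing by the density of each whole list gave ratios of 2.93 and 2.81 for E14, 3.50 and 3.96 for P19, and 2.15 and 2.73 for 3T3. The 200 kb on each side of the windows held 51.2 and 33.0 peaks per Mb for E14, 31.8 and 39.0 for P19, and 10.2 and 8.75 for 3T3, so part of the excess extended beyond the windows. Read depth cannot be seen from the lists, so absence of a peak may reflect detection as well as occupancy.

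**Figure D2:**
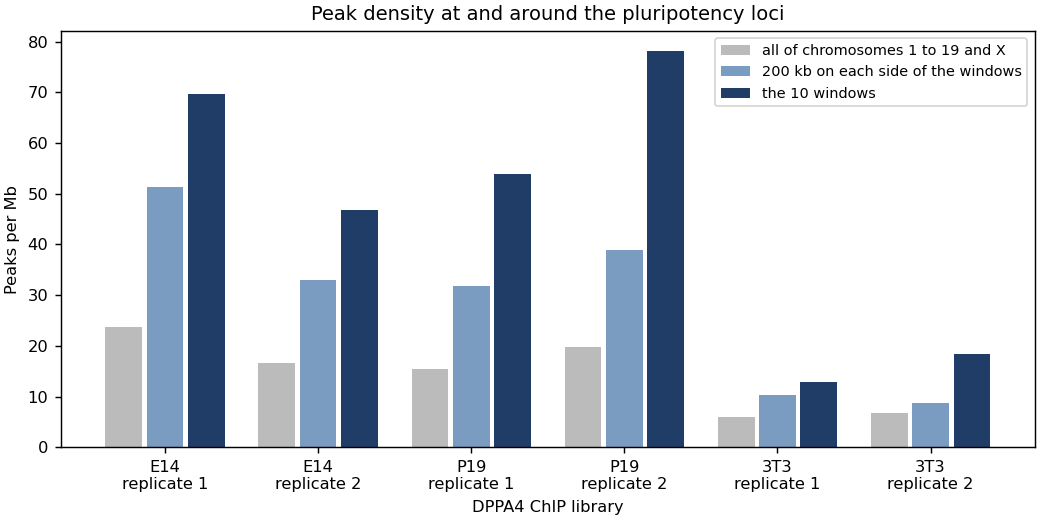
Peaks per Mb (vertical axis) in each of the 6 libraries over chromosomes 1 to 19 and X (grey), over the 200 kb on each side of the windows (light blue) and in the 10 windows (dark blue). In every library the windows were above the neighbouring stretches, and these were above the genome.

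The relative density was highest in P19, but the order of the lines could not be tested at this size. The ratio was 3.73 ± 0.322 in P19, 2.87 ± 0.0906 in E14 and 2.44 ± 0.414 in 3T3 (SD, n = 2 each). Both P19 libraries were above both libraries of E14 and 3T3, and both E14 libraries were above those of 3T3. Each of the 3 contrasts gave an exact two-sided permutation p of 0.33, the smallest that 2 libraries against 2 allow. The difference of E14 minus 3T3, 0.43, turned to -0.19 without the Esrrb locus, whose window is the longest and is sparse in 3T3. It was 0.016 with flanks of 10 kb. P19 minus 3T3 was 1.29 with all loci and 1.21 without Esrrb.

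Most peaks at these loci were of middling rank within their lists. The score that the authors' peak caller gave was turned into a percentile, the share of the peaks of the same list that scored no higher. The median percentile of the window peaks was 47.9 and 43.0 for the E14 libraries, 45.4 and 52.1 for P19, and 59.3 and 32.5 for 3T3. None of the 197 peaks reached 3100, the value at which scores pile up in the E14 and P19 lists. Over the 6 lists 1.68% of the peaks did, most of them in P19 (1399 and 2108 peaks). With a limit of 3 counts, 0 of 197 allows a share of up to 1.52%, and nothing is read from this difference. The highest percentile was 98.3, at Klf4 in 3T3 replicate 2, followed by 90.7 at Esrrb in P19 replicate 2.

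When lists were cut to their top 15462 peaks by score, the length of the shortest list, the E14 windows lost nearly all their peaks. The E14 libraries then held 3 and 5 peaks at the 10 loci, P19 held 12 and 10, and 3T3 held 9 and 12. The E14 ratio fell to 0.957, about that of the whole genome, against 2.63 in P19 and 2.51 in 3T3. The difference of E14 minus 3T3 turned to -1.55 (exact permutation p = 0.33), and that of P19 minus 3T3 shrank to 0.12 (exact permutation p = 0.67). Regions in both libraries remained at 2 loci in E14, 6 in P19 and 3 in 3T3. With lists of equal length, E14 thus had no more loci with a region than 3T3.

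**Figure D3:**
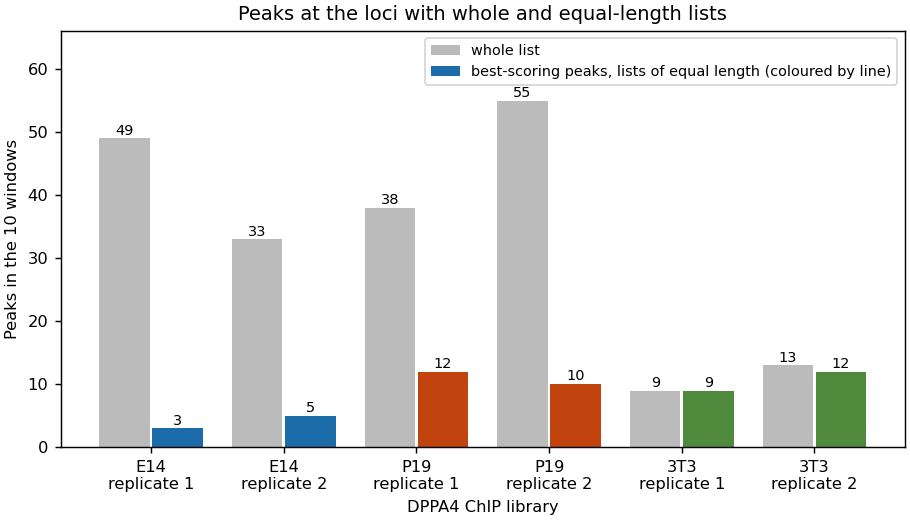
Number of peaks in the 10 windows (vertical axis) in each of the 6 libraries, with the whole list (grey) and with the 15462 highest-scoring peaks of each list (coloured by line). The E14 libraries dropped from 49 and 33 peaks to 3 and 5, below both the P19 and the 3T3 libraries.

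Pou5f1 encodes OCT4, and its own start and body carried no DPPA4 peak in any of the 6 libraries. E14 had 4 and 3 peaks in the window, P19 had 4 and 6, and 3T3 had 0 and 2. In the libraries with a peak, 2.37% (P19 replicate 2) to 7.08% (E14 replicate 1) of genome tiles of the same length held as many. All of the window peaks lay downstream of the gene, and the peak nearest to the start had its midpoint between 10.0 and 15.1 kb away. On that side the RefSeq table places the neighbouring genes Tcf19 and Cchcr1. In GRCm38 these cover 6.70 to 10.8 kb and 11.0 to 25.0 kb from the Pou5f1 start, distances not converted to mm9. The best-ranked region, chr17:35666906-35667838, was held by E14 and P19 and had its midpoint 24.4 kb from the Pou5f1 start. It stood at percentiles 67.1 and 47.9 in E14 and 73.4 and 70.6 in P19, with no peak in 3T3. The 2 peaks of 3T3 replicate 2 lay 10.1 and 11.0 kb from the start, and the stronger of them, at percentile 61.0, overlapped no peak of the other lines.

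Sox2 encodes the HMG-box partner of OCT4, and its start had peaks in both libraries of E14 and 3T3 while a site downstream was the strongest in P19. E14 had 4 and 3 peaks here, P19 had 3 and 8, and 3T3 had 1 and 2. Of genome tiles of the same length, between 0.974% (P19 replicate 2) and 16.5% (3T3 replicate 1) held as many. A region over the start, chr3:34549125-34550608, was held by E14 (percentiles 45.4 and 66.9) and 3T3 (61.3 and 58.7). In P19 it had a peak in replicate 2 alone, at percentile 38.5. The downstream region, chr3:34562063-34563324, lay 13.7 kb from the start, with scores of 700 and 1026 in P19 (percentiles 86.3 and 89.5). No E14 library had a peak there, and 3T3 replicate 2 had a weak peak at percentile 21.4. E14 and P19 shared a region 7.53 kb upstream. The whole locus lies within Sox2ot, a long noncoding RNA gene, so these sites cannot be told apart from sites of that gene.

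Nanog encodes a homeodomain factor, and its sites were shared by E14 and P19 and absent from both 3T3 lists. The E14 libraries had 4 and 5 peaks in the window and the P19 libraries 5 and 3. For E14 and P19, 2.51% (E14 replicate 2) to 9.82% (P19 replicate 2) of genome tiles of the same length held as many. All 3 regions found were held by E14 and P19, with midpoints 10.7, 8.16 and 0.887 kb upstream of the start. The farthest, chr6:122645672-122646863, was the best-ranked, with percentiles of 82.2 and 74.9 in E14 and 61.2 and 67.4 in P19. The nearest region had percentiles of 68.3 and 48.9 in E14 and 30.2 and 55.1 in P19. Of the 10 loci, Nanog was the place of the highest-ranked peak of E14 replicate 1. In the RefSeq table the pseudogenes Gm10420 and Gm10224 lie on the upstream side. In GRCm38 they cover -11.5 to -10.6 kb and -9.15 to -8.42 kb from the Nanog start, distances not converted to mm9.

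**Figure D4:**
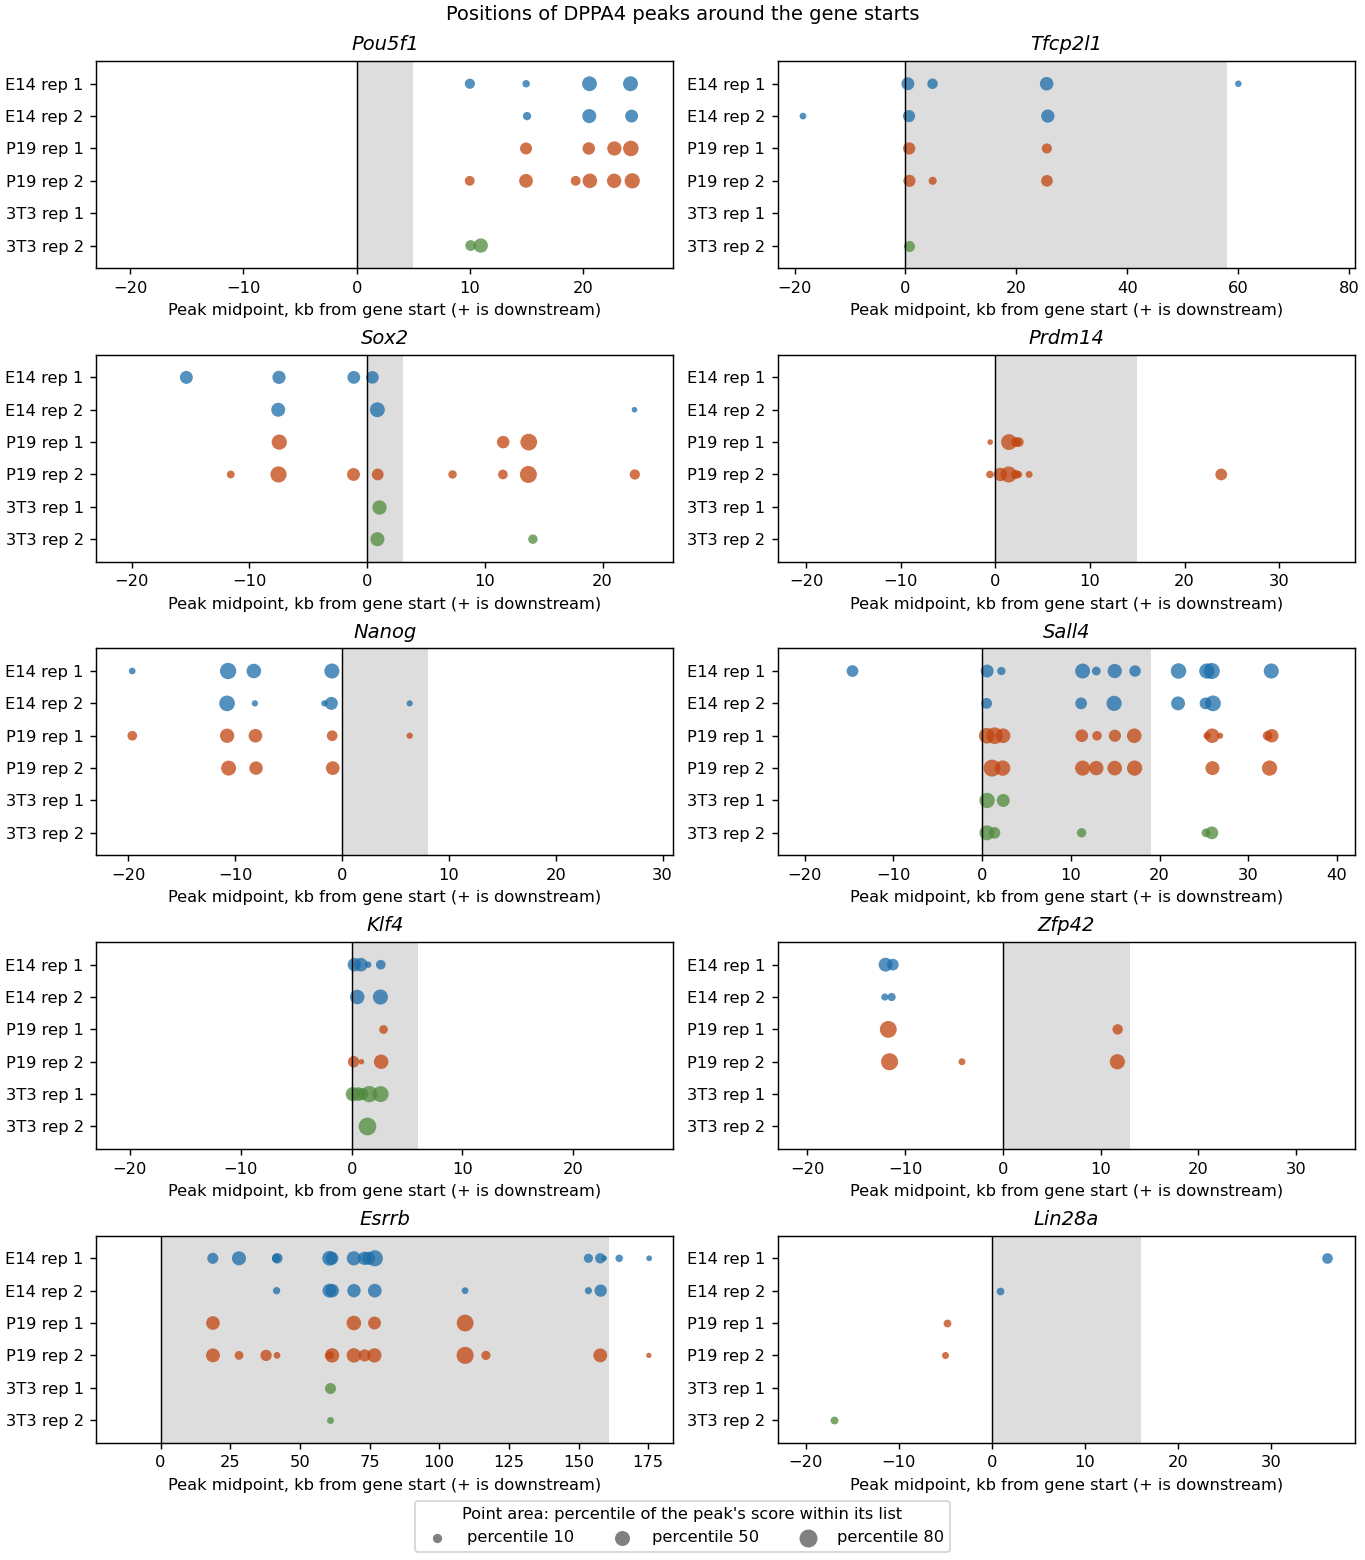
Midpoints of the DPPA4 peaks at the 10 loci, in kb from the gene start, with downstream to the right, 1 row of points per library, the gene span in grey and the start as a black line. Point area follows the percentile of the peak within its list. Peaks cluster just inside the start of Klf4, Sall4 and Prdm14, and none lies at the start of Pou5f1, Zfp42 or the first Esrrb start.

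Klf4 encodes a zinc-finger factor used in reprogramming, and here the 3T3 fibroblasts had the highest-ranked peaks. Peaks numbered 4 and 2 for E14, 1 and 3 for P19, and 5 and 1 for 3T3, all with midpoints between the start and 2.80 kb inside the gene. Of genome tiles of the same length, between 0.401% (3T3 replicate 1) and 39.0% (P19 replicate 1) held as many. For 3T3 replicate 2 the share was 21.5%. The peaks merged into a single region of 3496 bp, chr4:55542849-55546344, held by all 3 lines. The long peak of 3T3 replicate 2 joined stretches that lay apart in the other libraries. The P19 libraries overlapped only at peaks with midpoints 2.80 and 2.67 kb inside the gene, and P19 replicate 1 had no peak at the start. The single peak of 3T3 replicate 2 scored 1502 and spanned 3462 bp, at percentile 98.3 of its list. In 3T3 replicate 1 the same stretch was split into 5 peaks that covered 2769 bp, the best at percentile 82.2. In E14 the best percentiles were 55.2 and 69.1, with 1588 and 2268 bp covered. In P19 they were 17.0 and 62.5, with 561 and 1701 bp covered. Klf4 was the locus where the 3T3 libraries covered more sequence than any library of the other lines. Peaks are wider in replicate 2 of each line, and the medians over the whole 3T3 lists were 400 and 872 bp.

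Esrrb encodes an orphan nuclear receptor, and peaks were scattered over its long body with none at the first of its listed starts. E14 had 15 and 8 peaks over the window, P19 had 4 and 13, and each 3T3 library had 1. The window is the longest of the 10, at 201 kb. Genome tiles of that length held as many in 6.74% and 9.88% of cases for E14 and 25.9% and 6.20% for P19. For 3T3 the shares were 45.6% and 53.3%. The best-ranked region, chr12:87810919-87811713, was held by P19, with scores of 801 and 1206 (percentiles 87.5 and 90.7), and lay 109.3 kb downstream of the start. E14 replicate 2 had a peak there at percentile 6.85, and E14 replicate 1 had none. Regions of both E14 and P19 lay 69.4 and 76.9 kb downstream. The peaks nearest the first start lay 18.8 kb downstream, at percentile 33.1 in E14 replicate 1 and 54.6 and 57.0 in P19.

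The single Esrrb region of 3T3 fell close to the second listed start of the gene. RefSeq lists a second Esrrb start 60.5 kb downstream of the first in GRCm38, a build in which the gene is 160.5 kb long against 161 kb for the mm9 span. In mm9 the region chr12:87762220-87763059 lay 60.6 kb downstream of the first start. It was held by E14 (percentiles 65.5 and 57.1) and 3T3 (32.6 and 7.42), and P19 replicate 2 had a peak in it at percentile 13.9. A neighbouring region about 1 kb farther on was held by E14 (47.0 and 51.7), with a peak at 61.7 in P19 replicate 2. All libraries but P19 replicate 1 therefore had a peak at about this distance. The 2 distances come from different builds and were not converted.

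Tfcp2l1 encodes a factor of the CP2 family and had a start peak of moderate rank in nearly every library. Peaks numbered 4 and 3 for E14, 2 and 3 for P19, and 0 and 1 for 3T3. In the libraries with a peak, 18.7% (E14 replicate 1) to 36.1% (3T3 replicate 2) of genome tiles of the same length held as many. The start region, chr1:120524156-120525067, stood at percentiles 48.2 and 41.6 in E14 and 42.8 and 41.7 in P19. In 3T3 it had a peak in replicate 2 alone, at 32.5. A second region of E14 and P19 lay 25.6 kb inside the gene. No peak at this locus was above percentile 53.7.

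Prdm14 encodes a PR-domain protein of naive stem cells and germ cell precursors, and its locus had peaks in P19 and in neither of the other lines. The P19 libraries had 4 and 7 peaks in the window, against 0 in all 4 libraries of E14 and 3T3. In the P19 lists 4.90% and 2.43% of genome tiles of the same length held as many peaks. The best-ranked region, chr1:13116176-13117022, lay 1.40 kb inside the gene, with scores of 339 and 439 (percentiles 76.7 and 79.3). Other regions ranked lower. They lay 2.29 kb inside (percentiles 24.5 and 20.3) and 0.577 kb before the start (1.91 and 10.7, scores 50.68 and 57.96). The peak nearest the start, of P19 replicate 2, lay 0.523 kb inside at percentile 52.1. Absence from a list means that no peak reached its lowest score, 50. With 2 libraries against 2, no exact test of E14 against P19 could go below 0.33.

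Sall4 encodes a zinc-finger factor of stem cells and held a long run of sites in E14 and P19. E14 had 11 and 6 peaks in the window, P19 had 12 and 8, and 3T3 had 2 and 5. Of genome tiles of the same length, between 0.316% (P19 replicate 1) and 7.90% (3T3 replicate 1) held as many. A region at the start, chr2:168591040-168592867, was held by all 3 lines. It stood at percentiles 47.9 and 31.2 for E14, 86.2 and 90.0 for P19, and 71.2 and 67.1 for 3T3. The best-ranked region by mean percentile, chr2:168566644-168567426, lay 26.0 kb from the start, beyond the end of the gene. It stood at 80.3 and 75.8 in E14 and 63.5 and 57.7 in P19, with a peak at 47.3 in 3T3 replicate 2. In E14 this distal site thus ranked above the start, and in P19 the start ranked above it. The noncoding gene Gm14261 overlaps the Sall4 start, and Atp9a lies on the downstream side. In GRCm38 Atp9a covers 24.8 to 132.8 kb from the Sall4 start, which takes in the distance of the distal site. The distances come from different builds and were not converted.

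Zfp42 encodes REX1, a much used marker of the naive state, and had its best-ranked peaks well upstream rather than at its start. Each E14 library had 2 peaks in the window, the P19 libraries had 2 and 3, and the 3T3 libraries had 0. For E14 and P19, 11.2% (P19 replicate 2) to 26.2% (E14 replicate 1) of genome tiles of the same length held as many. The upstream region, chr8:44403737-44405460, lay 11.6 kb before the start and was held by E14 and P19. In P19 it scored 849 and 1131 (percentiles 88.1 and 90.2), each a single peak over the region. In E14 it was split into 2 peaks per library, the best at percentiles 57.2 and 14.01. P19 alone held another region 11.7 kb inside the gene. The peak nearest the start, of P19 replicate 2, had its midpoint at -4.175 kb (upstream) and stood at percentile 7.64.

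Lin28a encodes an RNA-binding protein that blocks maturation of let-7 microRNAs, and its locus was nearly empty. Each of the E14 and P19 libraries had 1 peak, 3T3 replicate 1 had 0 and 3T3 replicate 2 had 1. The sole region, chr4:133579708-133580147, was held by P19, 4.93 kb upstream, at percentiles of 12.2 and 7.70. The peak nearest the start, of E14 replicate 2, lay 0.84 kb inside the gene at percentile 11.4. No peak at this locus was above percentile 29.9. Between 24.9% and 55.4% of genome tiles of the same length held as many peaks in the libraries with 1. The 55.4% belongs to E14 replicate 1, whose peak overlaps the window edge with its midpoint outside. Tile peaks were counted by midpoint, so this share sets unlike counts side by side.

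**Figure D5:**
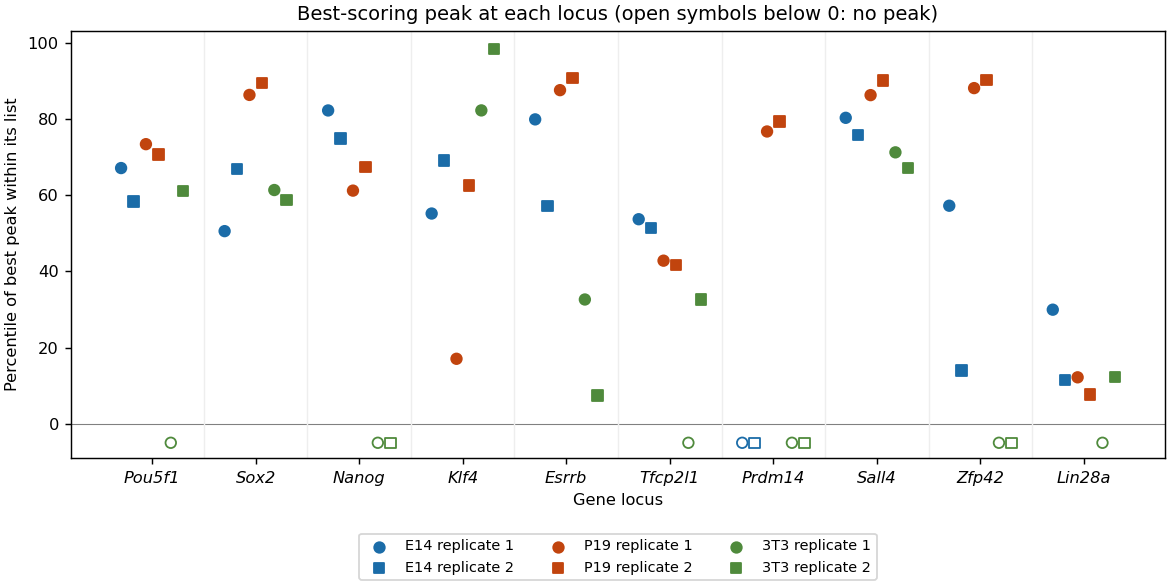
Percentile of the best-scoring peak at each locus within its own list (vertical axis, 100 for the strongest), with circles for replicate 1, squares for replicate 2 and open symbols below 0 where a library had no peak. The 3T3 libraries stood at 82.2 and 98.3 at Klf4, the P19 libraries at 86.2 or above at Sox2, Esrrb, Sall4 and Zfp42, and no library above 29.9 at Lin28a.

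Gene starts were occupied in both libraries at 5 genes for E14, 4 for P19 and 3 for 3T3. The E14 genes were Sox2, Nanog, Klf4, Tfcp2l1 and Sall4, the P19 genes Nanog, Tfcp2l1, Prdm14 and Sall4, and the 3T3 genes Sox2, Klf4 and Sall4. A start counted when a peak lay within 1 kb of it, and the same counts were found within 2 kb. The Prdm14 start peak of P19 replicate 1 scored 50.68, at percentile 1.91, close to the lowest score of 50. With a score of 100 or more the counts were 4 for E14, 2 for P19 and 3 for 3T3. With the best 50% of each list they were 1, 1 and 3. Of all 2 kb tiles of the genome, 3.71% overlapped a peak in both libraries of E14, 3.18% in P19 and 1.11% in 3T3. These tiles are not gene starts, and how often other gene starts had peaks was not analysed here. Sall4 was the only gene of the 10 with a start peak in 6 of 6 libraries. Of the 197 window peaks, 38 lay at a start, 81 elsewhere in the gene, 29 upstream and 49 downstream.

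Regions at these loci were divided among the lines much as elsewhere for E14 and P19 together, while regions of P19 alone made up a larger share. Merged over the lines, the windows held 39 regions. Those of E14 and P19 without 3T3 numbered 15, or 38.5% (Wilson 95% interval 24.9 to 54.1), against 40.2% of all regions in the genome. Those of P19 alone numbered 14, or 35.9% (22.7 to 51.6), against 13.7%. Those of E14 alone numbered 6, or 15.4% (7.25 to 29.7), against 22%. All 3 lines held 2 regions, at Klf4 and Sall4, or 5.13% (1.42 to 16.9), against 15.4%. E14 and 3T3 without P19 held 2, at Sox2 and Esrrb, or 5.13%, against 3.27%. No region was held by 3T3 alone or by P19 with 3T3, where the genome has 4.37% and 1.1%. With a limit of 3 counts, 0 of 39 allows up to 7.69%, and the Wilson interval reaches 8.97%. The P19 regions fell at 7 loci and those at a locus are not independent, so the intervals, which cover counting error only, are too narrow.

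Of the 14 regions of P19 alone, 8 had no peak in either E14 library and 6 had a peak in 1 of them. The E14 regions of the windows were held by P19 in 18 of 27 cases, 66.7% (47.8 to 81.4), against 68.8% over all E14 regions. The P19 regions were held by E14 in 17 of 31 cases, 54.8% (37.8 to 70.8), against 79.4%. These shares moved with the libraries used. With a library left out, all peaks of the line's other library counted as regions. The shares below therefore differ from those above in the overlap rule as well as in the library. The first was 46.9% without E14 replicate 2 and 88.9% without P19 replicate 1, and the second was 71.0% without E14 replicate 2 and 43.6% without P19 replicate 1.

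Few regions were shared with 3T3. Of the E14 regions 5 of 27, or 18.5% (8.18 to 36.7), overlapped a 3T3 region, against 23.6% over all E14 regions. Of the P19 regions 2 of 31, or 6.45% (1.79 to 20.7), did so, against 24%. The 4 regions of 3T3 all overlapped an E14 region, where the share over all 3T3 regions was 77.6%, and 2 of them overlapped a P19 region, against 68.3%. The 3T3 lists had no peak in 12 of the 15 regions common to E14 and P19. With a library left out, all peaks of the line's other library counted as regions, so the overlap rule changed too. Without 3T3 replicate 1 the shares rose to 33.3% of the E14 and 19.4% of the P19 regions, and 61.5% of the 3T3 peaks overlapped an E14 region. Without P19 replicate 1 the share of P19 was 10.9% and that of 3T3 in P19 was 100%, without P19 replicate 2 the former was 7.89%, and without 3T3 replicate 2 the latter was 33.3%.

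Replicates overlapped at these loci about as they did elsewhere, except in 3T3 replicate 2. Of the window peaks, 59.2% and 81.8% for E14, 89.5% and 58.2% for P19, and 88.9% and 30.8% for 3T3 overlapped a peak of the other library. Over the whole lists the shares were 66.7% and 86.5%, 87.7% and 65.2%, and 86.8% and 63.9%. In 3T3 replicate 2, 4 of 13 window peaks did so.

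Widening the limit by 5 kb would have added few peaks. Within 5 kb inside the 20 kb limit the 6 lists held 18 peaks, and within 5 kb outside it they held 4. The peaks nearest to the limit were a peak of E14 replicate 1 at Lin28a, 19.9 kb from the gene and at percentile 29.9, and a peak of the same library at Sall4, 20.2 kb away and at percentile 35.6.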

How the data were processed

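The deposited data are 6 peak lists, 1 per DPPA4 library, with the chromosome, start, end, name and score of each peak. Per the submitters' processing notes, CASAVA 1.8, bcl2fastq 1.8, BWA 0.7.13-r1126, SAMtools 1.3 and build mm9 were used. Per the file headers and peak names, the authors called peaks with a program named MACS in each library separately. No source used here gives its version, threshold or control. The deposited score ran from 50 upwards and its scale is not named, so it was ranked within a list alone. Lists held 15462 to 61693 peaks, and read depth is unknown. The members, lists and tests were chosen with earlier results of these data known.

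All 10 genes were named. At each locus the region of highest mean percentile, regions of all lines and the peak nearest the start, or the region holding it, were described. Strands came from general knowledge and matched RefSeq for the 8 genes in its promoter table. Gene spans are known to about 1 kb. Peaks of the 2 libraries that overlapped by at least 1 bp were joined into regions of the line. Tiles ran from 3 Mb to the last peak of chromosomes 1 to 19 and X. Peaks were counted by overlap in the windows and in the 50 kb and 2 kb tiles. In tiles of a locus's own length and in the 200 kb beside the windows they were counted by midpoint. Contrasts used exact two-sided permutation tests over libraries. The overlap code was tested on simulated data. Coordinates are 1-based. Scripts ran under Python 3.11.15 with SciPy 1.17.1, pandas 2.3.3, Matplotlib 3.10.9 and NumPy 2.4.6. Alternatives were 50% overlap, a score of at least 100, the best 50% of each list, equal-length lists, flanks of 10 and 50 kb, peaks of either library, 2 kb around starts, omission of each library in turn and a replicate block. Leaving out the Esrrb or Sall4 locus was added after the data were seen.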

Additional observations from a re-analysis of the deposited data

How the results depend on the processing

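Of 189 recomputed values, 39 moved past their tolerance, 2 differences turned their direction and 148 did neither. The tolerance was 1.5 times for a count, the Wilson interval for a share and 1 SD of the libraries for a ratio or percentile. With 2 libraries per line, leaving 1 out cannot move a ratio or percentile past 1 SD. The replicate block cannot change a mean difference. Such values are among the 148 and say nothing about stability. Differences between lines were judged by direction alone, so their sizes could change much. With lists limited to 15462 peaks, regions remained at 2 loci in E14 and 6 in P19, and start peaks at 0 and 1 genes. The density ratio was then 0.957 in E14 and 2.63 in P19, the difference of E14 minus 3T3 was -1.55 and that of P19 minus 3T3 was 0.12, and the shares of E14 held by P19, E14 held by 3T3, P19 held by E14 and 3T3 held by E14 were 0% each, over few regions. With the best 50% of each list, start peaks remained at 1 gene in E14 and 1 in P19, the E14 ratio was 2.45, and the shares of E14 in P19, P19 in E14 and 3T3 in E14 were 36.4%, 25.0% and 33.3%. Fewer peaks entered in both cases. A score of 100 or more gave an E14 ratio of 2.72 and 2 start genes in P19. Ratios depended on the flank, with 3.13 in E14, 4.08 in P19 and 3.12 in 3T3 at 10 kb, and 2.50, 2.96 and 1.87 at 50 kb. E14 minus 3T3 was 0.016 at 10 kb. The median percentile was 43.8 in P19 at 10 kb and 41.8 in E14 at 50 kb. With peaks of either library, 3T3 had regions at 7 loci, and 22.4% of P19 regions were held by 3T3 and 85.7% of 3T3 regions by P19. An overlap of 50% of the shorter peak gave regions at 9 loci in P19, against 10, left the loci of E14 and 3T3 at 8 and 4, and moved no share beyond its interval.

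Without the Esrrb locus, the ratios were 4.31 in P19 and 3.10 in 3T3, and E14 minus 3T3 was -0.19 (exact permutation p = 1). Without the Sall4 locus, E14 stood at 2.49, P19 at 3.15 and 3T3 at 1.83. The causes were not tested.

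With a library left out, every peak of the line's other library counted as a region or start peak, since overlap between libraries could no longer be required. The counts are thus those of single lists. Leaving out each library gave regions at 9 to 9 loci in E14, 10 to 10 in P19 and 4 to 7 in 3T3. Start peaks lay at 5 to 6, 4 to 6 and 3 to 4 genes. The ratios ranged from 2.81 to 2.93 in E14, 3.50 to 3.96 in P19 and 2.15 to 2.73 in 3T3. The differences ranged from 0.14 to 0.72 for E14 minus 3T3, 1.00 to 1.58 for P19 minus 3T3, and -1.09 to -0.63 for E14 minus P19. Shares ranged from 46.9% to 88.9% (E14 in P19), 14.3% to 33.3% (E14 in 3T3), 43.6% to 71.0% (P19 in E14), 7.89% to 19.4% (P19 in 3T3), 61.5% to 100% (3T3 in E14) and 33.3% to 100% (3T3 in P19). Median percentiles ranged from 32.5 to 59.3 in 3T3, 43.0 to 47.9 in E14 and 45.4 to 52.1 in P19.

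With the replicate number as a block, the mean paired differences in the ratio were 0.43 for E14 minus 3T3, 1.29 for P19 minus 3T3 and -0.86 for E14 minus P19. Each had an exact sign-flip permutation p of 0.5, the smallest that 2 pairs allow. Nothing in the labels ties the numbers to a shared culture or day. No contrast could pass a threshold at this size, so the alternatives do not measure the stability of a call.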
